A study of Mus musculus with 20 samples.

Results

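The level of 9 genes of gluconeogenesis and hepatic glucose handling was followed in the livers of mice given corticosterone (CORT), a monoclonal antibody that neutralizes acyl-CoA binding protein (αACBP), or both. The genes were Pcx, Pck1, Fbp1, G6pc, Slc37a4, Ppargc1a, Slc2a2, Pfkl and Pklr, taken from the liver count table by gene name. They were chosen by their names and known roles, with earlier results of these data known. All 9 were found, each as 1 of the 48440 genes in the table, and all 9 were among the 16071 genes with enough counts to be tested. RNA sequencing of total RNA had been carried out on 20 livers of female wild-type C57BL/6 mice, which were 8 weeks old, fed freely, and killed at the end of the 5th week of treatment. There were 5 livers in each of 4 groups, made up of isotype control antibody (IgG2a) without CORT (Isotype + Vehicle) or with it (Isotype + CORT), and αACBP likewise (αACBP + Vehicle and αACBP + CORT). All 20 mice received an antibody by intraperitoneal injection, so no group was free of injections. Each liver is a separate mouse by its label, the whole liver tissue was sampled without separation of cell types, and the hour of death was not given in the sources used here.

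Gluconeogenesis makes glucose in the hepatocyte from lactate, alanine and other amino acids, and glycerol, and it reverses glycolysis except at 3 steps that need enzymes of their own. Pyruvate is turned into oxaloacetate by pyruvate carboxylase and into phosphoenolpyruvate by its carboxykinase, fructose 1,6-bisphosphate is cleaved by its phosphatase, and glucose 6-phosphate is moved into the endoplasmic reticulum and cleaved to glucose. Glucocorticoids and glucagon are known inducers of this pathway in liver, and insulin is known to repress it.

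The livers held 14934926 to 20299999 read pairs counted on genes, and livers of 1 group correlated at 0.928 to 0.979 (Pearson, log2 scale, across genes). The defining hepatocyte markers were high in every liver, with 6 of 6 in the table and a sum of 38703 to 140860 CPM (counts scaled to 1000000 per library by its effective size). Adipocyte and kidney tubule markers, 6 of each, summed to at most 2.45 and 1.39 CPM. Fkbp5, a gene induced by glucocorticoids, had 33.2, 45.3, 40.8, 26.1 and 51.1 CPM in Isotype + Vehicle livers 1 to 5 and 137, 142, 67.6, 177 and 117 CPM in Isotype + CORT livers 1 to 5, and it rose with CORT by 1.70 (SE 0.26, adjusted p = 0.000722) on the log2 scale in edgeR's quasi-likelihood test. Of 9 glucocorticoid targets listed, Fkbp5 was the 1 to pass in this comparison. With CORT 3 of the 9 were higher and 6 lower, with a median log2 difference of -0.40. Dbp, a gene whose level swings over the day with the circadian clock, had 5.42 to 23.5 CPM in Isotype + Vehicle livers and 151 to 611 CPM in αACBP + Vehicle livers, with no overlap. Hence a different phase of the clock and the antibody cannot be told apart in the comparison of those groups. The same αACBP + Vehicle livers also enter the comparison of CORT with vehicle under αACBP and the interaction of CORT and αACBP.

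Per kilobase of the canonical transcript, the order of the levels was led by Pck1 in every group. In Isotype + Vehicle livers Pck1 stood at 516 ± 204 CPM per kilobase (mean ± SD, n = 5), Fbp1 at 200.2 ± 81.6, G6pc at 128 ± 87.6 and Pcx at 65.3 ± 9.18. On the same scale Slc37a4 stood at 58.4 ± 13.6, Pklr at 53.1 ± 6.57 and Slc2a2 at 37.8 ± 4.83, and the neighbours Pcx, Slc37a4 and Pklr differed by less than their spread. Pfkl at 5.27 ± 0.950 and Ppargc1a at 1.76 ± 0.379 CPM per kilobase were the lowest of the 9. Fbp1 and G6pc changed places between groups, with G6pc above Fbp1 in both αACBP groups, and their ranges overlapped in all 4.

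**Figure D1:**
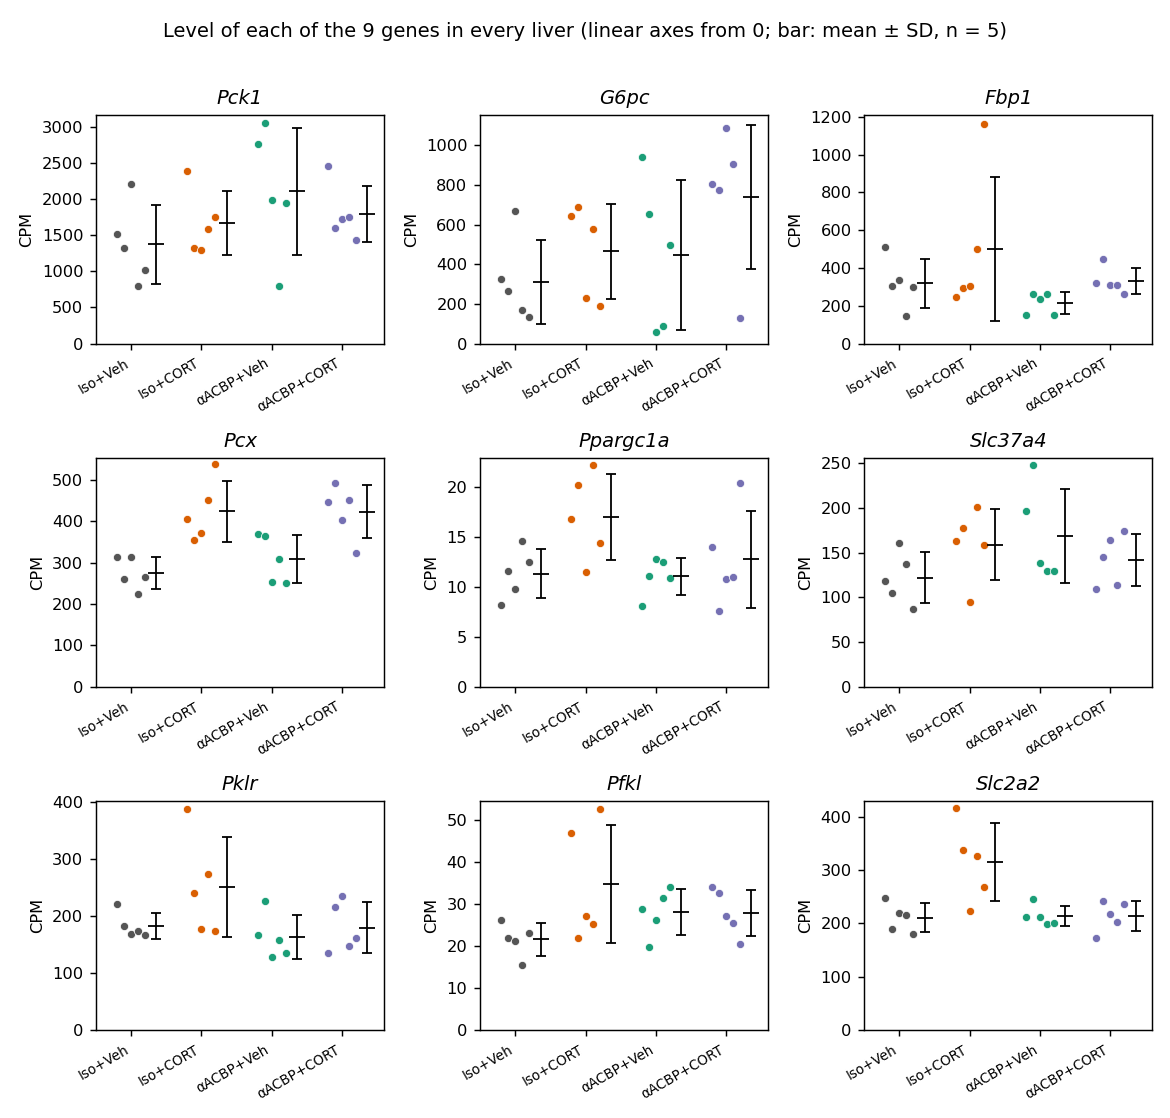
Level of each of the 9 genes in CPM (linear axis from 0) in every liver of the 4 groups, with 1 point per liver and the group mean ± SD (n = 5) beside it. Pcx lay higher in all 5 Isotype + CORT livers than in any Isotype + Vehicle liver, and G6pc spread widely inside every group.

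CORT under isotype antibody raised 2 of the 9 genes, Pcx and Slc2a2, where 1.34% of all tested genes rose and 3.20% passed the test in either direction (adjusted p of 0.05 or less, edgeR's quasi-likelihood test, Benjamini-Hochberg over 16071 genes). The fitted difference was positive for all 9, with a median of 0.58 on the log2 scale against 0.0022 over all genes tested, and from 0.28 for Pck1 to 0.68 for Pfkl. At an unadjusted p of 0.05 or less there were 5 of 9, beside 15.6% of all tested genes. With the study's own further limit, a log2 fold change of 1 or more in either direction on top of the adjusted p, none of the 9 passed and 1.94% of all tested genes did. This comparison asks what the hormone did to these transcripts where ACBP was left free.

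Pcx encodes pyruvate carboxylase, the mitochondrial enzyme that opens the pathway from pyruvate (ENSMUSG00000024892.15, GRCm39 chromosome 19 from 4559902 to 4672189 on the plus strand). Its level was 315, 262, 314, 223 and 266 CPM in Isotype + Vehicle livers 1 to 5 and 406, 354, 373, 453 and 538 CPM in Isotype + CORT livers 1 to 5. All 5 livers given CORT stood above all 5 without it, a separation that 5.04% of all tested genes showed in either direction. Pcx rose by 0.62 (SE 0.17, adjusted p = 0.0383), or 1.54-fold. Lrfn4 and Rce1, transcribed in the opposite sense, share 8.64% of the exonic bases of Pcx.

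Slc2a2 encodes GLUT2, the transporter that lets glucose pass both into and out of the hepatocyte (ENSMUSG00000027690.13, chromosome 3 from 28752051 to 28785508 on the plus strand). It had 248, 189.6, 220.0, 216 and 179 CPM in Isotype + Vehicle livers 1 to 5 and 417, 338, 224, 326 and 269 CPM in Isotype + CORT livers 1 to 5. Isotype + CORT liver 3 alone lay inside the vehicle range, below vehicle liver 1, and the other 4 lay above it. Slc2a2 rose by 0.58 (SE 0.16, adjusted p = 0.0453), or 1.49-fold.

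Both calls sat near the threshold. The increase of Pcx stayed between 0.52 and 0.67 and that of Slc2a2 between 0.45 and 0.68 (log2) when any 1 of the 10 livers was left out, but the number of the 9 genes passing fell from 2 to 0 without Isotype + Vehicle 2, 3, 4 or 5 or Isotype + CORT 1 or 4, and to 1 without Isotype + CORT 5 (Slc2a2), and without Isotype + CORT 2 Slc2a2 had an adjusted p of 0.0974 while Pfkl passed at 0.0497. DESeq2's Wald test and limma's voom also called both genes, where they called 5.91% and 3.06% of all genes. Both were lost when only the 2 groups compared were fitted (adjusted p = 0.0652 for Pcx and 0.111 for Slc2a2), without a filter on low counts and with a block for replicate number, and Slc2a2 also with scaling that left out the 20 genes of highest counts.

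Pck1 encodes cytosolic phosphoenolpyruvate carboxykinase, the textbook hormone-induced step of the pathway (ENSMUSG00000027513.11, chromosome 2 from 172994744 to 173001066 on the plus strand). It had 1524, 1318, 2208, 795 and 1017 CPM in Isotype + Vehicle livers 1 to 5 and 2394, 1318, 1299, 1589 and 1753 CPM in Isotype + CORT livers 1 to 5. The groups overlapped, and the difference was 0.28 (95% interval -0.29 to 0.86, adjusted p = 0.734), so a 2-fold increase lay outside the interval and no change lay inside it.

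G6pc encodes the catalytic subunit of glucose-6-phosphatase, which releases free glucose (ENSMUSG00000078650.2, named G6pc1 in the annotation, chromosome 11 from 101258369 to 101268729 on the plus strand). It had 325, 266, 666, 167 and 132 CPM in Isotype + Vehicle livers 1 to 5 and 644, 690.4, 228, 577 and 187 CPM in Isotype + CORT livers 1 to 5. Isotype + CORT livers 3 and 5 lay among the vehicle livers, and the other 3 lay near the highest of them, vehicle liver 3. The difference of 0.58 (95% interval -0.94 to 2.10, adjusted p = 0.809) did not pass, and its interval held lower levels as well as a rise of over 2-fold.

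Fbp1, fructose-1,6-bisphosphatase (ENSMUSG00000069805.10, chromosome 13 from 63012567 to 63036263 on the minus strand), had 509, 303, 336, 145 and 299 CPM in Isotype + Vehicle livers and 248, 292, 307, 503 and 1161 CPM in Isotype + CORT livers, each in the order 1 to 5. Isotype + CORT liver 5 alone stood far above the rest, and the difference of 0.66 (SE 0.37, adjusted p = 0.423) did not pass and was 0.077 without that liver. Slc37a4, the carrier that moves glucose 6-phosphate into the endoplasmic reticulum (ENSMUSG00000032114.8, chromosome 9 from 44308144 to 44314265 on the plus strand), went from 122 ± 28.5 to 159 ± 39.3 CPM (mean ± SD, n = 5), a difference of 0.38 (SE 0.21, adjusted p = 0.409). Trappc4, transcribed in the opposite sense, shares 89.9% of the exonic bases of Slc37a4, and the strand setting of the counting was not given in the sources used here. Trappc4 itself held 5.83 ± 2.2 and 11.3 ± 7.49 CPM in the same groups, a difference of 0.95 (SE 0.36). The share of pairs counted on both Slc37a4 and Trappc4 was not tested.

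Ppargc1a encodes PGC-1α, a coactivator of the gluconeogenic genes (ENSMUSG00000029167.13, chromosome 5 from 51611592 to 51725068 on the minus strand). It had 8.25, 11.6, 9.80, 14.6 and 12.5 CPM in Isotype + Vehicle livers 1 to 5 and 16.8, 20.2, 11.5, 22.2 and 14.4 CPM in Isotype + CORT livers 1 to 5. Its highest 3 livers of these 10 had all received CORT, yet the difference of 0.59 (SE 0.25, adjusted p = 0.228) did not pass over all genes.

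The opposing glycolytic enzymes did not pass either. Pfkl, the liver subunit of phosphofructokinase (ENSMUSG00000020277.9, chromosome 10 from 77818084 to 77845922 on the minus strand), had 26.3, 22.0, 21.2, 15.6 and 23.0 CPM in Isotype + Vehicle livers 1 to 5 and 46.8, 21.9, 27.1, 25.4 and 52.7 CPM in Isotype + CORT livers 1 to 5. Isotype + CORT livers 1 and 5 stood far above the rest and the remaining 3 were at or just above the vehicle livers, which gave a difference of 0.68 (SE 0.22, adjusted p = 0.0935). Exons of Cfap410 on the other strand cover 39.8% of those of Pfkl. Cfap410 itself was counted at 7.97 ± 2.07 and 8.49 ± 2.04 CPM in these groups, with a difference of 0.090 (SE 0.26). The share of pairs counted on both Pfkl and Cfap410 was not tested. Pklr, the pyruvate kinase of liver and red cells (ENSMUSG00000041237.12, chromosome 3 from 89043449 to 89054619 on the plus strand), had 221, 182, 168, 173 and 167 CPM in Isotype + Vehicle livers 1 to 5 and 388, 241, 178, 274 and 173 CPM in Isotype + CORT livers 1 to 5. Its difference was 0.46 (SE 0.21, adjusted p = 0.261), with CORT livers 1, 2 and 4 above every vehicle liver. Hcn3, whose exons on the other strand cover 32.9% of those of Pklr, was itself counted at 128 ± 14.9 and 191 ± 71.6 CPM, with a difference of 0.58 (SE 0.22), and the share of pairs counted on both genes was not tested.

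Kupffer cell and lymphocyte markers moved in the same comparison. Those of sinusoidal endothelial cells, stellate cells and cholangiocytes did not pass (exact permutation test, two-sided, adjusted p = 0.317, 0.286 and 0.656). Each set was adjusted over its own 4 comparisons and not over the sets together. The 6 Kupffer cell markers summed to 263 to 525 CPM in Isotype + Vehicle livers and 96.9 to 295 CPM in Isotype + CORT livers (exact permutation test, two-sided, p = 0.0159, 0.0317 adjusted over 4 comparisons), and 6 lymphocyte markers to 14.9 to 26.5 CPM and 1.16 to 11.5 CPM (exact p = 0.00794, the smallest that 5 against 5 livers can give, 0.0317 adjusted). The 6 hepatocyte markers summed to 82491 to 140860 CPM in Isotype + CORT livers. Such sums are not shares of cells. The part of the Kupffer cell and lymphocyte marker changes in the levels of the 9 genes was not tested. In whole liver, fewer cells of a type and less RNA per cell cannot be told apart. Within Isotype + CORT, livers 3 and 5 had the highest Dbp (18.7, 22.2, 144, 40.4 and 114 CPM in livers 1 to 5). With log2 CPM of Dbp as a covariate, an alternative added after the data had been seen, Pcx differed by 0.76 (adjusted p = 0.0174) and Slc2a2 by 0.65 (adjusted p = 0.0312), and 2 of 9 genes passed. In that fit 729 of all tested genes passed, in place of 514.

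**Figure D2:**
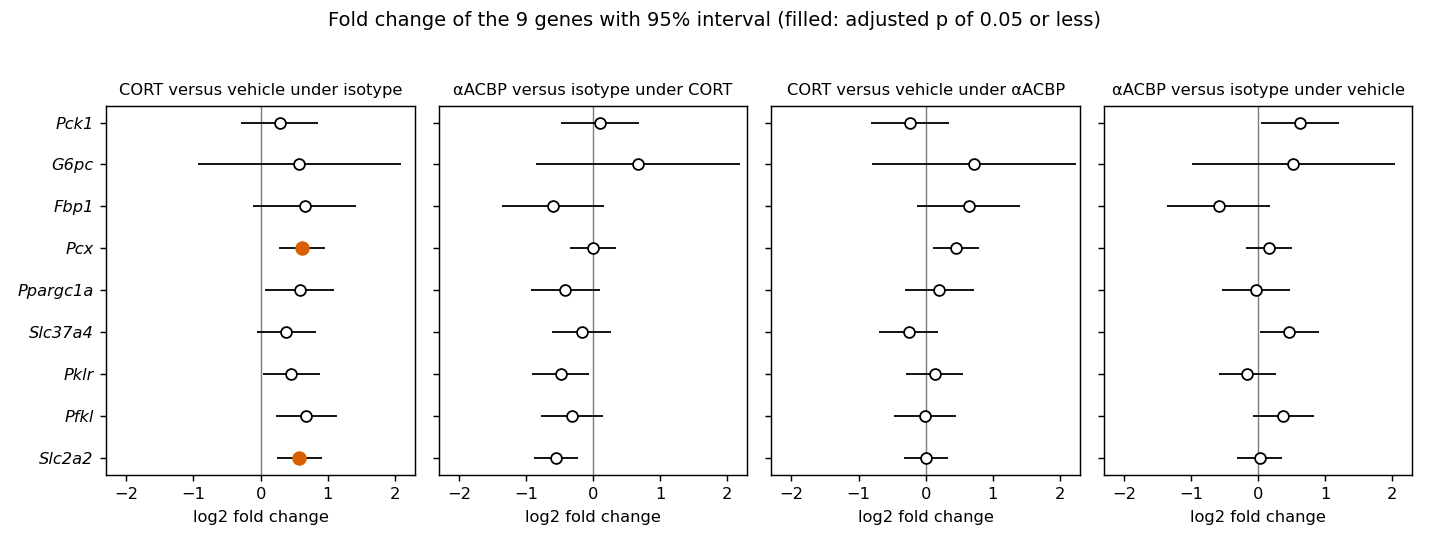
Log2 fold change (x axis) of the 9 genes (y axis) in 4 comparisons, with the 95% interval as a line and filled points where the adjusted p was 0.05 or less. In the comparison of CORT with vehicle under isotype antibody all 9 points lie to the right of 0 and 2 are filled, Pcx and Slc2a2, and in the other 3 none is filled.

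αACBP in CORT-treated mice left all 9 genes short of the threshold, with 0 of 9 passing where 0.958% of all tested genes did. At an unadjusted p of 0.05 or less there were 2 of 9, Slc2a2 and Pklr, both lower with αACBP, beside 12.5% of all tested genes. By limma's voom 0 of 9 were called, and 111 of all genes. DESeq2's Wald test called 1, Slc2a2 (-0.57, adjusted p = 0.0158), and 2.91% of the genes it gave an adjusted p. The fitted difference was negative for 7 of 9, with a median of -0.32 against 0.011 over all genes. This comparison asks whether neutralizing ACBP altered the transcripts under excess hormone, and it shares the Isotype + CORT livers with the comparison above, so the livers that were high there are the reference here.

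Slc2a2 had 173, 242, 218, 202 and 236 CPM in αACBP + CORT livers 1 to 5, beside 417, 338, 224, 326 and 269 CPM in Isotype + CORT livers 1 to 5. Isotype + CORT liver 3 lay among the antibody livers and the other 4 lay above all of them. The difference was -0.55 (95% interval -0.89 to -0.22, adjusted p = 0.0976), and of the 10 fits with 1 liver left out it passed in that without Isotype + CORT 3 (-0.65, adjusted p = 0.0289). Pklr had 134, 216, 236, 148 and 162 CPM in αACBP + CORT livers 1 to 5 and differed from Isotype + CORT by -0.48 (SE 0.21, adjusted p = 0.322). Hcn3, which overlaps it, differed by -0.59 (SE 0.22).

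Pcx showed almost no difference between the CORT-treated groups. Its level was 447, 494, 403, 453 and 323 CPM in αACBP + CORT livers 1 to 5 and the difference was -0.0027 (95% interval -0.35 to 0.34, adjusted p = 0.997). Fbp1 had 323, 448, 311, 312 and 265 CPM in αACBP + CORT livers 1 to 5, and its difference of -0.60 (SE 0.37, adjusted p = 0.568) had the single high Isotype + CORT liver 5 in its reference group and was -0.026 without it. G6pc was at 804, 773, 1088, 903 and 126 CPM in αACBP + CORT livers 1 to 5, higher in livers 1 to 4 than in any Isotype + CORT liver and lower in liver 5 than in all of them, and the difference was 0.67 (95% interval -0.85 to 2.18, adjusted p = 0.82).

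The remaining 4 differed by 0.10 (Pck1), -0.17 (Slc37a4), -0.32 (Pfkl) and -0.41 (Ppargc1a) on the log2 scale, with adjusted p from 0.546 to 0.954. Pck1 had 2455, 1602, 1726, 1756 and 1441 CPM in αACBP + CORT livers 1 to 5, all inside or just above the Isotype + CORT range. The Kupffer cell markers summed to 363 to 499 CPM in the αACBP + CORT livers against 96.9 to 295 CPM in Isotype + CORT (exact permutation test, two-sided, p = 0.00794, 0.0317 adjusted), the summed hepatocyte markers to 73412 to 107283 CPM, and their part in these differences was not tested.

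CORT given together with αACBP passed for none of the 9 genes when compared with αACBP + Vehicle, where 0.305% of all tested genes passed. Fkbp5, the gene used as the check of CORT, overlapped between these groups. It had 63.0 ± 24.2 CPM (36.8 to 86.7) in αACBP + Vehicle and 76.8 ± 19.8 CPM (55.0 to 100) in αACBP + CORT livers (mean ± SD, n = 5). At an unadjusted p of 0.05 or less there was 1, Pcx, beside 12.7% of all tested genes. DESeq2's Wald test called 0 of 9, and 310 of all genes. By voom 1 was called, Pcx (0.50, adjusted p = 0.0470), and 2.56% of all genes. The fitted differences were positive for 6 of 9 (median 0.14 against 0.0067 over all genes). Dbp had 151 to 611 CPM in αACBP + Vehicle and 6.44 to 195 CPM in αACBP + CORT livers, with medians of 236 and 7.98 CPM. With Dbp as a covariate 0 of all tested genes passed in this comparison, so the 9 genes could not be read free of it. Pcx had 369.8, 365, 253, 309 and 251 CPM in αACBP + Vehicle livers 1 to 5, and 4 of the 5 αACBP + CORT livers lay above all of these, a difference of 0.45 (95% interval 0.11 to 0.80, adjusted p = 0.239). Fbp1 had 151, 263, 236, 263 and 149 CPM in αACBP + Vehicle livers 1 to 5, and every αACBP + CORT liver lay above them, if only by the margin between 263 and 265 CPM. A separation of this kind was seen in 2.74% of all tested genes, and the difference of Fbp1 was 0.64 (SE 0.37, adjusted p = 0.494). Slc2a2 and Pfkl showed differences of 0.0029 (95% interval -0.33 to 0.33, adjusted p = 0.997) and -0.0075 (95% interval -0.46 to 0.45, adjusted p = 0.995). The 6 lymphocyte markers summed to 9.80 to 27.0 CPM in αACBP + Vehicle livers and 3.16 to 16.2 CPM in αACBP + CORT livers (exact permutation test, two-sided, p = 0.0238, 0.0476 adjusted over 4 comparisons), and their part in these levels was not tested.

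The direct comparison of αACBP + CORT with Isotype + Vehicle, which asks how far the doubly treated livers stood from those given isotype antibody and vehicle, also held 0 of 9 passing, with 0.0809% of all tested genes passing. By an unadjusted p of 0.05 or less there was 1, Pcx, beside 7.59% of all tested genes. Both DESeq2 (0.61, adjusted p = 0.0163) and voom (0.64, adjusted p = 0.00227) called it, with 1.32% of the genes DESeq2 gave an adjusted p and 3.62% of all genes by voom. Every αACBP + CORT liver was above every Isotype + Vehicle liver in Pcx, as was the case in either direction for 3.31% of all tested genes, and the difference was 0.62 (95% interval 0.27 to 0.96, adjusted p = 0.167). Slc2a2, by contrast, differed by 0.025 (95% interval -0.31 to 0.36, adjusted p = 1). G6pc had the largest fitted difference of the 9, 1.25 (95% interval -0.29 to 2.78, adjusted p = 0.799), with αACBP + CORT liver 5 below every vehicle liver and the other 4 above all 5 of them.

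αACBP without CORT passed for none of the 9 genes by the test, beside 5.14% of all tested genes. At an unadjusted p of 0.05 or less there were 2, Pck1 and Slc37a4, both higher with αACBP, beside 20.6% of all tested genes. DESeq2's Wald test and voom called 0 of 9 each, and 1585 and 1845 of all genes. The median difference was 0.17 on the log2 scale (-0.019 over all genes), with 6 of 9 positive. The 6 hepatocyte markers summed to 68017 to 120611 CPM in Isotype + Vehicle and 38703 to 93684 CPM in αACBP + Vehicle livers (exact permutation test, two-sided, p = 0.0794, 0.286 adjusted). The 6 cholangiocyte markers summed to 63.5 to 97.6 and 28.0 to 73.4 CPM (exact p = 0.0159, 0.0635 adjusted). Neither passed after adjustment, and their part in these levels was not tested. Pck1 had 2763, 3059, 1989, 797 and 1951 CPM in αACBP + Vehicle livers 1 to 5, and liver 4 lay at the bottom of the vehicle range while livers 1 and 2 lay above it. Its difference was 0.62 (95% interval 0.043 to 1.20, adjusted p = 0.204), and without αACBP + Vehicle 4 it was 0.83 (adjusted p = 0.0497). Slc37a4 had 196, 248, 138, 129.8 and 129.6 CPM in αACBP + Vehicle livers 1 to 5 and 119, 105, 161, 138 and 87.3 CPM in Isotype + Vehicle livers 1 to 5. Only αACBP + Vehicle livers 1 and 2 stood above the vehicle livers, and the difference was 0.47 (SE 0.21, adjusted p = 0.205).

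G6pc in αACBP + Vehicle livers 1 to 5 was 939, 654, 56.6, 90.0 and 496 CPM, so that 3 livers were high and livers 3 and 4 were lower than all 15 livers of the other groups. The difference of 0.52 (95% interval -0.99 to 2.04, adjusted p = 0.773) changed direction with the weighting of libraries (-0.54 with voom quality weights). Fbp1 and Pklr differed by -0.59 and -0.16, and Pcx, Ppargc1a and Slc2a2 by 0.17, -0.033 and 0.022. Dbp differed between these groups by 4.31 (SE 1.06), and with Dbp as a covariate no gene of the 16071 passed in this comparison, so the 9 genes could not be read free of it.

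The interaction term, which asks whether the CORT difference was itself altered by αACBP, passed for none of the 9 (0.143% of all tested genes passed). DESeq2's Wald test and voom called 0 of the 9, and 239 and 53 of all genes. At an unadjusted p of 0.05 or less there were 3, beside 10.6% of all tested genes. These were Slc2a2 at -0.58 (95% interval -1.05 to -0.11, adjusted p = 0.322), Pfkl at -0.69 (95% interval -1.34 to -0.044, adjusted p = 0.423) and Slc37a4 at -0.64 (95% interval -1.25 to -0.020, adjusted p = 0.449). For Pcx it was -0.17 (95% interval -0.66 to 0.32, adjusted p = 0.88), so the rise of Pcx under isotype antibody was not shown to differ from its difference under αACBP. The term was negative for 8 of 9 with a median of -0.38, against 0.033 over all genes. With Dbp as a covariate 0 of the 9 passed, and 6 of all tested genes did in place of 23. The part of the clock in this term was not tested.

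G6pc was the most variable of the 9 between livers of 1 group. The SD of its log2 CPM within groups was 1.28, above that of 99.8% of the 16071 tested genes, whose median was 0.463, even though the gene is abundant. Its lowest and highest livers within a group differed from 56.6 to 939 CPM in αACBP + Vehicle and from 126 to 1088 CPM in αACBP + CORT. Pcx and Slc2a2 were the least variable, with SDs of 0.240 and 0.225, which exceeded those of 9.28% and 7.07% of the genes. Fbp1 at 0.611 and Pck1 at 0.528 lay between. Among the 10 CORT-treated livers, those with the 3 lowest G6pc levels (Isotype + CORT 3 and 5 and αACBP + CORT 5) also had the 3 highest Dbp levels, a pattern seen after the values were known, and the part of the clock in G6pc was not tested.

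The balance between opposed enzymes of 1 step was described by the log2 ratio of their counts in each liver, without a test. For Fbp1 over Pfkl the means under isotype antibody were 3.79 ± 0.39 with vehicle and 3.68 ± 0.82 with CORT, and those under αACBP were 2.90 ± 0.64 with vehicle and 3.57 ± 0.21 with CORT (± SD, n = 5). For Pck1 over Pklr they were 2.83 ± 0.56 and 2.77 ± 0.36 under isotype antibody and 3.59 ± 0.71 and 3.33 ± 0.56 under αACBP. With CORT under isotype antibody both sides of these steps had positive fitted differences, and the mean ratios moved by less than 1 SD. The αACBP + Vehicle group had the lowest Fbp1 over Pfkl and the highest Pck1 over Pklr, each with livers inside the range of other groups.

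**Figure D3:**
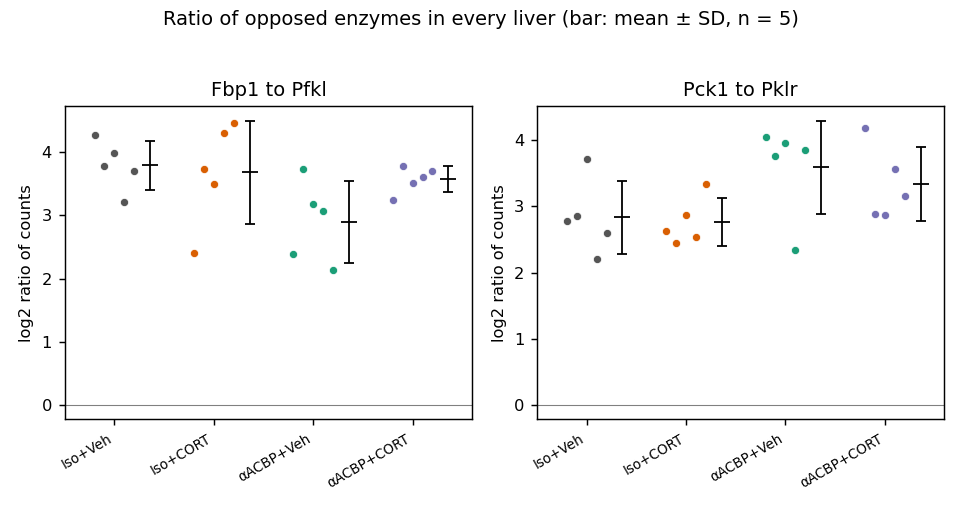
Log2 ratio of the counts of 2 pairs of opposed enzymes (y axis), Fbp1 over Pfkl and Pck1 over Pklr, in every liver of the 4 groups (x axis), with the mean ± SD (n = 5). The groups overlap in each panel, with Fbp1 over Pfkl at 3.79 ± 0.39 in Isotype + Vehicle and 3.68 ± 0.82 in Isotype + CORT livers.

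Genes that varied together from liver to liver were sought among the 36 pairs of the 9 genes, with each gene centred within its treatment group so that the treatments could not make the correlation. Pearson's r was positive in 24 pairs and negative in 12 (median 0.19). Pklr and Slc2a2 were the most tightly correlated pair, with r = 0.80 and Spearman's rho = 0.78 over 20 livers (permutation within groups, adjusted p = 0.00828 for r over 36 pairs). Slc37a4 and Slc2a2 followed with r = 0.71 and rho = 0.71 (permutation, adjusted p = 0.0171 for r). Fbp1 and Pcx had r = 0.66 (permutation, adjusted p = 0.0286), which was not past the threshold by rank (adjusted p = 0.0632).

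Without the 2 livers farthest from the median of the first gene of a pair, r was 0.71 for Pklr and Slc2a2, 0.58 for Slc37a4 and Slc2a2 and 0.52 for Fbp1 and Pcx. Pck1 and G6pc, reached r = 0.62 (permutation, adjusted p = 0.0896, rho = 0.53), and r = 0.51 without the 2 farthest livers. Pcx and Ppargc1a ran in opposite directions (r = -0.58, permutation, adjusted p = 0.0947, rho = -0.58). These livers share library preparation and scaling.

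**Figure D4:**
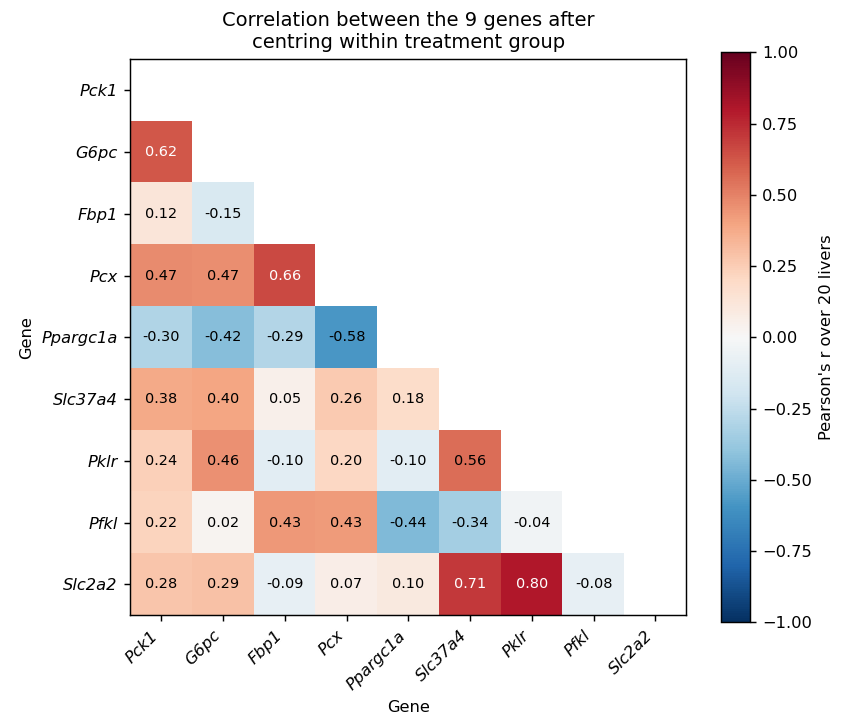
Pearson's r between each pair of the 9 genes (both axes) over 20 livers, after each gene was centred within its treatment group, with colour from -1 to 1. Slc2a2 with Pklr (0.80) and with Slc37a4 (0.71) are the highest values.

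The surrounding pathway was read from lists of genes, 27 of which passed the test in at least 1 of the 4 comparisons of a single treatment. Of the 109 list genes tested, 11 passed for CORT under isotype (10.1%, beside 3.20% of all tested genes), 1 for αACBP under CORT (0.917%, beside 0.958%), 3 for CORT under αACBP (2.75%, beside 0.305%) and 15 for αACBP under vehicle (13.8%, beside 5.14%). Clock genes and glucocorticoid targets are among the 109, and the lists were chosen with earlier results known. With CORT under isotype antibody, 2 of 8 enzymes of the steps shared by glycolysis and gluconeogenesis rose and none fell, with a list median of 0.56 against 0.0022 over all genes. They were Gpi1, glucose-6-phosphate isomerase (0.91, SE 0.24, adjusted p = 0.0289), and Aldoa, aldolase A (0.66, SE 0.17, adjusted p = 0.0287). Of 14 genes of substrate entry 1 rose, Gpd1, the cytosolic glycerol-3-phosphate dehydrogenase (0.86, SE 0.21, adjusted p = 0.0235). Of 12 genes of glucose uptake and glycolysis 1 fell, Pfkfb1, the bifunctional enzyme that sets fructose 2,6-bisphosphate (-1.28, SE 0.26, adjusted p = 0.00501).

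At the pyruvate node, where 12 of 13 genes were tested, Pdha1 rose (0.60, SE 0.16, adjusted p = 0.0403) and Dlat fell (-0.70, SE 0.20, adjusted p = 0.0475), both subunits of pyruvate dehydrogenase. Of 14 genes of glycogen metabolism 2 rose, Gbe1, the glycogen branching enzyme (1.15, SE 0.25, adjusted p = 0.00988), and Ugp2, which makes UDP-glucose (0.74, SE 0.19, adjusted p = 0.0307). Srebf1, the insulin-induced regulator of lipogenesis, fell (-0.81, SE 0.22, adjusted p = 0.0411), the 1 of 8 genes of hormone receptors and insulin-regulated genes to pass, and 0 of 17 transcriptional regulators of gluconeogenesis passed. Of 11 calls on list genes in this comparison, Fkbp5 and the clock-controlled Hlf included, 4 were kept whichever liver was left out (Fkbp5, Hlf, Pfkfb1 and Gbe1). The other 7 were each lost without 4 to 8 of the 10 livers in turn, among them Isotype + Vehicle 2, 4 and 5 and Isotype + CORT 1 for all 7. Gpi1, Aldoa, Pdha1, Dlat and Ugp2 were also lost when only the 2 groups were fitted, Pdha1 without a filter on low counts and with the replicate block, Srebf1 with voom, and Aldoa, Dlat and Srebf1 with Dbp as a covariate.

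Gbe1 had 43.2, 29.4, 30.2, 22.5 and 20.6 CPM in Isotype + Vehicle livers 1 to 5, 68.2, 49.6, 30.1, 66.4 and 110.3 in Isotype + CORT, 20, 17.5, 11.2, 19.1 and 18.4 in αACBP + Vehicle and 22.5, 35.0, 25.7, 25.8 and 21.5 in αACBP + CORT. Isotype + CORT liver 3 alone of its group lay among the others. αACBP lowered Gbe1 in CORT-treated livers by -1.32 (SE 0.25, adjusted p = 0.00771), and it was the single gene of all these lists to pass in that comparison, a call lost when only the 2 groups were fitted.

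Without CORT, αACBP passed for 15 list genes, in the comparison with the highest share over all genes. Of the 14 glycogen genes 2 rose, Gys2, the liver glycogen synthase (1.25, SE 0.20, adjusted p = 0.00215), and Phka2, a subunit of phosphorylase kinase (0.88, SE 0.23, adjusted p = 0.027). Of the 14 genes of substrate entry 2 fell, Mdh1, cytosolic malate dehydrogenase (-1.16, SE 0.26, adjusted p = 0.0146), and Gk, glycerol kinase (-0.53, SE 0.14, adjusted p = 0.027), and Mpc1, a subunit of the mitochondrial pyruvate carrier, fell as well (-0.82, SE 0.20, adjusted p = 0.0195). Of 17 transcriptional regulators 3 rose, Esrra, a nuclear receptor partner of PGC-1α (0.81, SE 0.16, adjusted p = 0.00638), Crtc2, a coactivator of CREB (0.70, SE 0.19, adjusted p = 0.0277), and Cebpb (1.04, SE 0.28, adjusted p = 0.0324), and Nr0b2, the repressor SHP, fell (-1.16, SE 0.27, adjusted p = 0.0159). Mt2, a metallothionein gene induced by glucocorticoids, rose (2.12, SE 0.39, adjusted p = 0.00721), 1 of 9 glucocorticoid targets.

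The clock genes moved in the same comparison, with 3 of 15 higher and 2 lower. Ciart (3.24), Dbp (4.31) and Tef (2.11) rose, and Arntl, listed today as Bmal1 (-2.11), and Nfil3 (-1.14) fell, with adjusted p from 0.00368 to 0.0287. Of the 15 calls on list genes 7 were kept whichever liver was left out (Gys2, Esrra, Mt2, Nfil3, Ciart, Tef and Arntl), and 14 of them were lost with Dbp as a covariate, Dbp itself not being testable there. In that fit 0 of all tested genes passed, so the loss does not single out these 14. Leaving out αACBP + Vehicle 1 ended the calls of Mdh1, Gk, Mpc1, Phka2, Nr0b2, Crtc2, Cebpb and Dbp, and some of these were also lost without Isotype + Vehicle 1, 2, 3 or 5 or αACBP + Vehicle 2, 3 or 5. Cebpb was lost with voom, without a filter on low counts, with only the 2 groups and with the replicate block, and Gk without a filter. A part of the clock in these changes was not tested.

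CORT under αACBP lowered Gys2 (-1.11, SE 0.20, adjusted p = 0.0101) and raised Ppp1r3c, a glycogen-targeting subunit of protein phosphatase 1 (1.66, SE 0.35, adjusted p = 0.047), and Nfil3 (1.45, SE 0.24, adjusted p = 0.0101). Gys2 had 78.7, 103, 134, 67.8 and 89.9 CPM in Isotype + Vehicle livers 1 to 5, 150.1, 127, 103, 107 and 142 in Isotype + CORT, 199, 222, 298, 163 and 247 in αACBP + Vehicle and 82.3, 102, 93.1, 97.9 and 149 in αACBP + CORT. All 5 αACBP + Vehicle livers stood above every other liver, and the interaction passed for Gys2 (-1.52, SE 0.28, adjusted p = 0.0162) as it did for Nfil3 (1.8, SE 0.33, adjusted p = 0.0162). The Gys2 call under αACBP was lost without αACBP + Vehicle 3 or αACBP + CORT 1, that of Ppp1r3c was kept only where αACBP + CORT 5 was the liver left out, and both interaction calls were lost without αACBP + CORT 3. Ppp1r3c was also lost with DESeq2's size factors, without a filter on low counts, with scaling that left out the 20 genes of highest counts and with the replicate block. With Dbp as a covariate all 3 calls under αACBP and both interaction calls were lost. In those fits 0 of all tested genes passed for CORT under αACBP and 6 for the interaction, so the losses do not single out these genes. The lymphocyte markers were lower in the same comparison, as given above, and their part in it was not tested. Counts of Mt2, Gpd1, Mpc1, Esrra, Ugp2 and Cebpb may include pairs from genes on the other strand, whose exons cover 82.4, 53.1, 35.5, 29.6, 25.0 and 20.7% of theirs, as may those of Dbp, Tef, Pdha1, Mdh1 and Nfil3 for 10.5 to 15.5% of theirs. Gm57854 on the same strand covers 43.1% of the exonic bases of Aldoa.

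**Figure D5:**
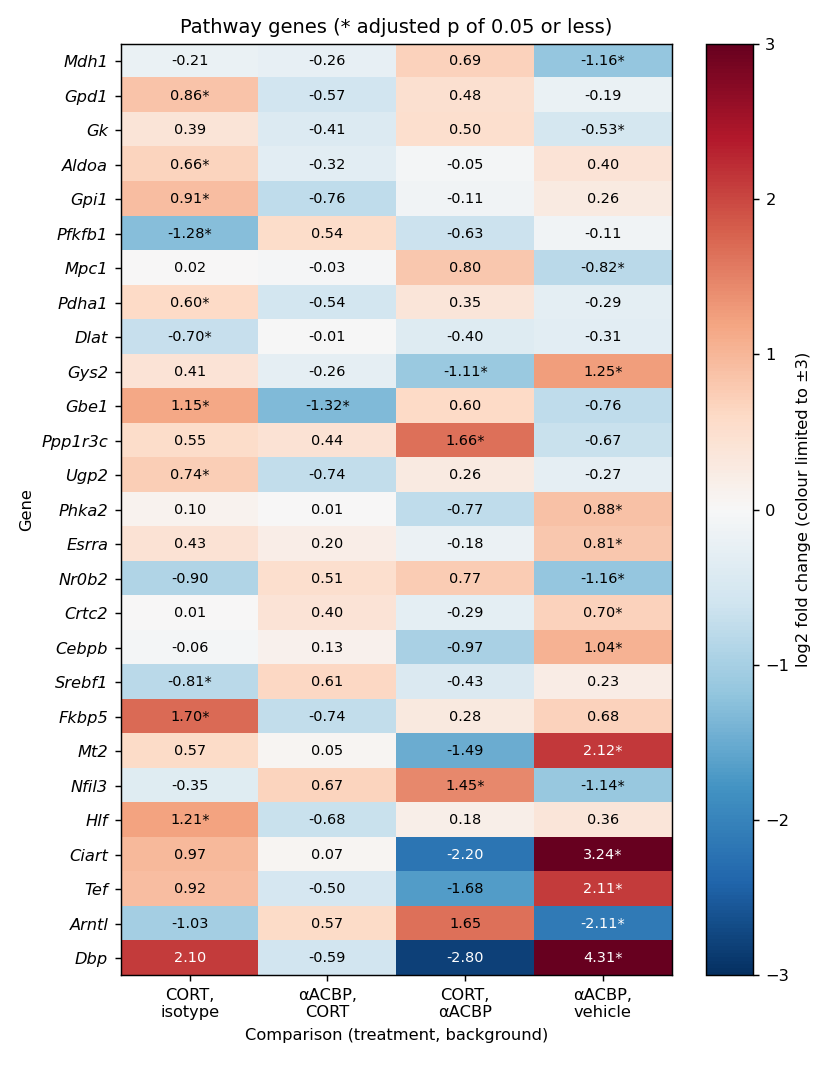
Log2 fold change (colour and number) of the pathway genes that passed the test in at least 1 of 4 comparisons (columns), with an asterisk where the adjusted p was 0.05 or less. Gbe1 carries asterisks of opposite sign for CORT under isotype (1.15) and αACBP under CORT (-1.32).

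The promoters of the 2 genes that passed and of the 2 classic hormone targets that did not are shown for the motifs searched in them, from 250 bases before to 50 after the start in RefSeq's GRCm38.p6 (13 windows for the 9 genes), a build whose coordinates cannot be laid over those of GRCm39 given above. Capitals mark a match on either strand, which is the E-box CACGTG in Pcx, the cAMP response core TGACG in Pck1 (CGTCA as printed) and TATAAA in G6pc, and Slc2a2 has none. Pcx has a further window (chr19:4594069-4594368, plus strand), not printed here, which held none of the motifs. Which of its windows serves in liver was not tested.
Pcx (chr19:4510222-4510521, plus strand): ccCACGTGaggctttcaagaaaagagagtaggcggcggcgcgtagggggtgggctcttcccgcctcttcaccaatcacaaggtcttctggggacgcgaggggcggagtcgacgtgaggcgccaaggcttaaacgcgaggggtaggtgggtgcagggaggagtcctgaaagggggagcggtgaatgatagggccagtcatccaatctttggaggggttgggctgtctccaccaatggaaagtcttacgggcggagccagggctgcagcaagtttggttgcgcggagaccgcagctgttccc
Slc2a2 (chr3:28697653-28697952, plus strand): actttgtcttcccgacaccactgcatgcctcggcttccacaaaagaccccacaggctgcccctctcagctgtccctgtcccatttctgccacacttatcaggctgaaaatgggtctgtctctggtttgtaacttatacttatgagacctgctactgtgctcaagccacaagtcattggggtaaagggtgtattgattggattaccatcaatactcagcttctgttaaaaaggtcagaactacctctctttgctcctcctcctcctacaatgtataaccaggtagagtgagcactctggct
Pck1 (chr2:173152823-173153122, plus strand): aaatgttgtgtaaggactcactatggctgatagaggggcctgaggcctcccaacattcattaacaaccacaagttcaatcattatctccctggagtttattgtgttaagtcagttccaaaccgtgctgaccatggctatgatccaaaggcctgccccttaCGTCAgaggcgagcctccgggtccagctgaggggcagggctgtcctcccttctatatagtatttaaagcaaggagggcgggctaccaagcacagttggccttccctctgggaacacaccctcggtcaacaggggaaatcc
G6pc (chr11:101367466-101367765, plus strand): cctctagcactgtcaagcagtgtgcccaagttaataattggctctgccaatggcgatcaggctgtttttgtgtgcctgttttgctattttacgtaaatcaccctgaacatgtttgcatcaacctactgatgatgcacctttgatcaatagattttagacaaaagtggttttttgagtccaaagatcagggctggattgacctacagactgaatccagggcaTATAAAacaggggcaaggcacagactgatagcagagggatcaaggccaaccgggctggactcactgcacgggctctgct

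None of the 9 genes held TGTTCT, a hexamer of the glucocorticoid receptor site, in any window, whereas 18.97% of the 32851 windows of all genes did. TGTTTAC, a FOXO site, was also absent from all 9, against 3.65% of windows. TGACG was found in 3 of the 9 (Pck1, Ppargc1a and Slc37a4) and in 20.8% of windows, TATAAA in 3 (G6pc, Pklr and Slc37a4) and in 13.6%, and CACGTG in 1 (Pcx, at -248) and in 7.15%. A gene of the 9 was counted if any of its windows matched, whereas the percentages are of single windows. The counts and percentages are therefore not like for like. In Pck1 the cAMP response core lay at -90 and in G6pc TATAAA lay at -29 from the start. These are matches of letters in short windows, and a gene missing a motif here may hold it elsewhere.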

How the data were processed

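Liver RNA of 20 mice was sequenced, and the authors aligned read pairs with HISAT2 and counted them per gene with HTSeq-count (union mode), pairs on several features being counted on each. The deposited table holds raw counts for 48440 genes. The paper names GRCm39 and the submitters' processing notes name mm10 as the genome, and the annotation release and strand setting are not given in the sources used here. Gene positions were taken from GENCODE M39 (GRCm39), in which 91.4% of the table's identifiers were found without their version. Pairs counted on no feature, 42.3 to 45.2% of those of each liver, stayed out of library sizes and tests.

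Counts were fitted with edgeR 4.0.16 (filterByExpr, TMM scaling, robust quasi-likelihood test; R 4.3.3) over all 4 groups, with Benjamini-Hochberg adjustment over 16071 genes and a threshold of 0.05, for the 4 comparisons of a single treatment, αACBP + CORT against Isotype + Vehicle and the interaction. Values are CPM with TMM library sizes, as mean ± SD, and intervals are 95%. Other tests were exact permutation tests for single sums and 100000 permutations within groups for correlations (log2 of CPM + 0.5). Depth allows a gene with 0 counts up to 0.201 CPM (3 counts at the lowest total, counting error only), far below all 9 genes. Scripts were tested on simulated data. Livers are separate mice by label, and no same-group pair agreed within sampling noise (chi-square per degree of freedom at least 12.0 in 40 pairs).

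Alternatives were DESeq2 1.42.0 (size factors and Wald test), limma 3.58.1 (voom with quality weights), no filter on low counts (1 count in any liver), a minimum of 10 counts per liver, scaling without the 20 genes of highest counts, fits of the compared groups alone, a block for replicate number, unadjusted p, a log2 fold change of at least 1, and each liver left out. Dbp as a covariate was added after the data had been seen. The 9 genes and the gene lists were chosen with earlier results of these data known. All 9 genes are named, as are Fkbp5 and the genes of each list that passed in a comparison of a single treatment, at most 6 a list by smallest p, and overlapping genes. Promoters are RefSeq's. A further ratio of opposed enzymes is not reported here.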

Additional observations from a re-analysis of the deposited data

Results flagged for a closer look

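In 3 of the 36 sets of 5 livers (9 genes in 4 groups) 1 liver stood apart from the other 4 by Dixon's gap test, where chance flags about 1 in 20. Fbp1 in Isotype + CORT liver 5 was 1161 CPM, with 503 CPM in the next highest liver of that group. Pklr in Isotype + Vehicle liver 1 was 221 CPM, with 182 CPM in the next, and Slc2a2 in αACBP + Vehicle liver 2 was 246 CPM, with 212 CPM in the next.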

How the results depend on the processing

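Of the 9 genes, 2 passed for CORT under isotype, and 2 did so with DESeq2's size factors or Wald test, voom, 10 counts in every liver or Dbp as a covariate. There were 0 without a filter on low counts, with only the groups compared, with the replicate block or with a log2 fold change of at least 1, 1 without the 20 most abundant genes in the library sizes, 5 by unadjusted p, and 0 to 2 with 1 liver left out. The 0 of 9 for αACBP under CORT became 1 by the Wald test and 2 by unadjusted p, and was 0 to 1 with 1 liver left out. The 0 for CORT under αACBP became 1 by voom and 1 by unadjusted p. The 0 for αACBP under vehicle became 2 by unadjusted p and was 0 to 1 with 1 liver left out. For αACBP + CORT against Isotype + Vehicle it became 1 by the Wald test, by voom and by unadjusted p, and for the interaction 3 by unadjusted p. Over all genes, counts moved by more than 1.5 times too, for CORT under isotype from 514 to 319 (only the groups compared) and 949 (Wald), for αACBP under CORT from 154 to 28 and 449, for CORT under αACBP from 49 to 310 (Wald), 412 (voom) and 0 (Dbp), and for αACBP under vehicle from 826 to 1585, 1845 and 0 in the same order, and with 1 liver left out. They were then 270 (without Isotype + Vehicle 2) to 650 (Isotype + CORT 3) for CORT under isotype, 61 (αACBP + CORT 3) to 316 (Isotype + CORT 3) for αACBP under CORT, 5 (αACBP + Vehicle 3) to 260 (αACBP + CORT 5) for CORT under αACBP, 183 (Isotype + Vehicle 5) to 1315 (Isotype + Vehicle 4) for αACBP under vehicle, 1 (Isotype + Vehicle 1 or 3) to 25 (αACBP + CORT 5) for αACBP + CORT against Isotype + Vehicle, from 13, and 6 (αACBP + CORT 3) to 102 (αACBP + CORT 5) for the interaction, from 23. Same-numbered livers of different groups did not deviate together (correlation -0.17 to 0.17 over 30 pairs, 1 of 20 livers closest to its own number), so the number does not pair them, and the block lowered the 2 calls of CORT under isotype to 0. Where both groups are at 0.201 CPM or less, depth sets the limit, which touches none of the 9.

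With Dbp as a covariate the sign turned to -0.00034 for Pck1 (αACBP under CORT), -0.38 for G6pc (αACBP under CORT), -1.83 for G6pc (CORT under αACBP), -0.41 for Pklr (CORT under αACBP), -0.18 for Slc2a2 (CORT under αACBP), 0.41 for Pklr (αACBP under vehicle), 0.0011 for Pklr (αACBP + CORT against Isotype + Vehicle), -3.11 for G6pc (the interaction) and 0.21 for Ppargc1a (the interaction). With voom the sign turned to 0.052 for Pcx (αACBP under CORT), 0.079 for Pck1 (CORT under αACBP), 0.067 for Pfkl (CORT under αACBP), -0.050 for Slc2a2 (CORT under αACBP), -0.54 for G6pc (αACBP under vehicle), 0.081 for Ppargc1a (αACBP under vehicle) and 0.21 for Fbp1 (the interaction). Without a filter on low counts the sign turned to 0.0060 for Pcx (αACBP under CORT) and 0.015 for Fbp1 (the interaction). With only the groups compared the sign turned to 0.0013 for Pcx (αACBP under CORT) and -0.0014 for Slc2a2 (CORT under αACBP). With DESeq2's size factors the sign turned to -0.021 for Slc2a2 (CORT under αACBP). With DESeq2's Wald test the sign turned to -0.021 for Slc2a2 (CORT under αACBP). With 10 counts in every liver the sign turned to -0.027 for Slc2a2 (CORT under αACBP). Without the 20 most abundant genes the sign turned to -0.0012 for Slc2a2 (CORT under αACBP) and 0.0054 for Fbp1 (the interaction). With the replicate block the sign turned to 0.010 for Pfkl (CORT under αACBP) and 0.057 for Fbp1 (the interaction). With 1 liver left out, log2 differences that changed sign at least once ranged from -0.033 to 0.28 for Pck1 (αACBP under CORT), -0.063 to 0.10 for Pcx (αACBP under CORT), -0.031 to 0.34 for Ppargc1a (CORT under αACBP), -0.11 to 0.088 for Pfkl (CORT under αACBP), -0.043 to 0.073 for Slc2a2 (CORT under αACBP), -0.13 to 0.071 for Ppargc1a (αACBP under vehicle), -0.039 to 0.086 for Slc2a2 (αACBP under vehicle), -0.13 to 0.29 for Fbp1 (αACBP + CORT against Isotype + Vehicle), -0.064 to 0.31 for Ppargc1a (αACBP + CORT against Isotype + Vehicle), -0.14 to 0.065 for Pklr (αACBP + CORT against Isotype + Vehicle), -0.032 to 0.093 for Slc2a2 (αACBP + CORT against Isotype + Vehicle), -0.33 to 0.61 for G6pc (the interaction) and -0.24 to 0.57 for Fbp1 (the interaction). Most of these differences were close to 0 in the reported fit, and the cause was not tested.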

Other observations

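G6pc had a close companion among the genes of these livers. Across 14690 genes, centred within groups over 20 livers, the gene most like it was Slc25a25, an ATP-magnesium/phosphate carrier of the inner mitochondrial membrane, with r = 0.94 and rho = 0.91, and r = 0.91 without the 2 livers farthest from the median of G6pc. Brd2, a bromodomain protein, followed with r = 0.88 and rho = 0.89 (0.82 without those 2 livers). Slc25a25 had a mean of 141 ± 129 CPM in Isotype + Vehicle, 276 ± 84.1 in Isotype + CORT, 257 ± 192 in αACBP + Vehicle and 425 ± 184 in αACBP + CORT (± SD, n = 5). Its difference with CORT under isotype antibody was 0.96 (SE 0.66, adjusted p = 0.565) and with αACBP under CORT 0.62 (SE 0.66, adjusted p = 0.814). Among the listed genes G6pc ran most closely with Tkfc (0.77), Tat, tyrosine aminotransferase (0.74), and Sik1 (0.71), and it ran against Dbp (-0.59). These genes were picked for their likeness after the values had been seen, share libraries and scaling with G6pc, and are a description without a test.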
